A study of Caenorhabditis elegans with 2 samples.

Results

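Of the 3341 ALY-2 peaks in the permissive list made from both replicates combined, 388 had their summit at the 3′ end of a protein-coding gene. These gene-end peaks were chosen by position alone. The summit lay in an annotated 3′ UTR (233 peaks) or up to 500 bp past a transcript end (155 peaks), outside coding exons, and outside the interval of 1000 bp before to 200 bp after any transcript start, including the starts of noncoding RNA genes. The end of any annotated transcript counted, so some past-end summits lie inside a longer transcript of the same gene. Gene-end peaks made up 11.6% of the list (95% interval 10.5 to 12.7%), and the other 2953 peaks served as the rest of the list. Intervals of shares are exact (Clopper-Pearson), those of densities are exact Poisson intervals, and both cover counting error over peaks only.

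The 3′ end of a messenger RNA is made by cutting the growing transcript downstream of a polyadenylation signal, most often AATAAA or a close variant in the DNA, and adding a poly(A) tail. The 3′ UTR that precedes the cut holds sites for microRNAs and RNA-binding proteins that control stability and translation. Aly/REF proteins are adaptors of the TREX complex, which loads onto RNA while it is transcribed and processed and hands the finished message to the export receptor NXF1.

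The values come from chromatin immunoprecipitation and sequencing of ALY-2, a C. elegans member of that family. Whole L4 larvae of mixed sex were taken from strain OP217, a single transgenic line with the genotype unc-119(ed3) III and the insertion ddIs172, which supplies ALY-2 fused at its C-terminus to GFP and FLAG. The 2 samples form 1 group and are named as biological replicates, nothing says whether they came from separate cultures, and no conditions were compared. Chromatin of all cell types was pooled, so a site bound strongly in few cells and one bound weakly in many cannot be told apart. The peak lists hold no expression values, so the tissue could not be checked against marker genes. Per replicate, 17453 and 29384 peaks were listed, and read depth is unknown. The combined and replicate lists hold background regions beside peaks, so weak peaks named below may be background. With gene-end peaks numbered by signal, the deposited −log10 q-value was 2.48 at hsp-1 (number 1) and 1.29 at atp-1 (number 55). It was 0.254 at ctn-1 (number 194), 0.135 at fat-2 and 0.038 at elo-1. At values this low, that measure does not tell a peak apart from background. The 193 combined peaks that also appear in the deposited list thresholded by irreproducible discovery rate are called the reproducible set. The name does not mean that the replicates agree at each peak. Of the gene-end peaks in the set, 2 had no counterpart in replicate 1. The unit of each peak's strength is the authors' signal, whose scale is not stated, so values were compared only within a list.

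Sequences at 7 of the 25 strongest gene-end peaks were picked to show 2 situations, summits beside a polyadenylation hexamer and summits farther inside a 3′ UTR. Others of the 25 fit neither. The epic-3 summit lay 31 bp before the end and the hrpu-1 summit 402 bp past it, both without AATAAA on the gene strand within 100 bp. All 7 sequences are 30 bases on the strand of the named gene, 5′ to 3′, in ce11 coordinates. At hsp-1 (chrIV:17281302-17281331, plus strand), pdi-2 (chrX:4526501-4526530, plus strand), sec-61.A (chrIV:14822543-14822572, minus strand) and rsp-8 (chrIII:11830944-11830973, plus strand), the AATAAA hexamer is in capitals. The marked hexamer begins 16, 23, 20 and 18 bases, in that order, before the annotated transcript end, and the summit lies within 50 bp of that end. At sec-61.A another AATAAA follows it directly, in lower case. At hsp-3 (chrX:6089167-6089196, minus strand), hrde-1 (chrIII:4172489-4172518, minus strand) and alg-1 (chrX:13955408-13955437, plus strand), no AATAAA lay within 100 bp of the summit on the gene strand. There the capital marks the summit base, between 148 and 838 bp before the end and inside the 3′ UTR.
hsp-1: agaatggtgaacAATAAAaaaattaaaata
pdi-2: actgggtcatctAATAAAtttttaccaaaa
sec-61.A: tcttcgatcccaAATAAAaataaattttaa
rsp-8: gaaactctaaaaAATAAAagcgagacgagc
hsp-3: tctcctaccccttttAtttcatggaatact
hrde-1: agatactcctgttttAcctgcctttttttc
alg-1: ctggtgagtcttgtaTgttcttgcacttca

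Of the 8 strongest gene-end peaks, 7 lay at genes of chaperones, Argonautes or a ribosomal protein. This cut and this grouping were chosen after the values were seen, and the count was not tested. The lists of these genes used below hold 68, 20 and 80 of the 19973 protein-coding genes, in that order. From the next peak down to zfp-1, number 25 by signal, rps-9 was the only assigned gene from these lists. The strongest gene-end peak lay 15 bp past the end of hsp-1, which encodes a constitutive Hsp70 chaperone. Its combined signal of 91.7 was the second highest of all 3341 peaks, and its signal was 35.7 in replicate 1 (rank 5 of that list) and 54.8 in replicate 2 (rank 4). The summit also lies at the end of nra-1, the convergent neighbour. The next, in the 3′ UTR of the Piwi gene prg-1, reached 84.1 in the combined list, with 38.3 in replicate 1 (rank 3) and 46.7 in replicate 2 (rank 10). Its summit, 103 bp before the prg-1 end, is shared with the gene D2030.12 on the other strand. Both peaks were therefore among the 10 strongest of each replicate.

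Below these, the signal of the gene-end peaks dropped to 55.4 at hrpu-1, an hnRNP U relative. Its summit lay 402 bp past the end, inside the span of another protein-coding gene. This peak was the strongest of replicate 1 (41.3), but ranked 822 in replicate 2 (13.7). The 3′ UTR of hsp-3, an Hsp70 of the endoplasmic reticulum, held a peak of 52.3, with 26.6 in replicate 1 (rank 21) and 25.6 in replicate 2 (rank 81). The peak of rpl-3, a protein of the large ribosomal subunit, reached 48.8, with 23.1 in replicate 1 (rank 37) and 28.2 in replicate 2 (rank 54). Its summit also lies at the end of tir-1. The hsp-3 and rpl-3 peaks ranked in the top 100 of both replicates, whereas hrpu-1 did so in replicate 1 only.

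A second Argonaute, hrde-1, which carries heritable small RNA silencing in germline nuclei, held a 3′ UTR peak of 47.2, with 30.5 in replicate 1 (rank 8) and 24.9 in replicate 2 (rank 93). The hrde-1 summit also lies at the end of C16C10.4. The 3′ UTR of alg-1, the Argonaute that binds microRNAs, held a peak of 46.2, with 20.5 in replicate 1 (rank 86) and 27.01 in replicate 2 (rank 63). Its summit lay 838 bp before the transcript end. The replicates differed more at pdi-2, a protein disulfide isomerase, whose peak of 46.9 ranked 7 in replicate 2 (47.7) but 6218 in replicate 1 (9.71).

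The other 17 of the 25 strongest gene-end peaks had combined signals between 35.1 and 43.6. They lay at spk-1, an SR protein kinase, at bcf-1 and epic-3, at cdc-48.2, an AAA ATPase that unfolds ubiquitinated proteins, and at gcy-28, a receptor guanylyl cyclase. They also lay at hcp-6, a condensin subunit, at vha-12, a subunit of the vacuolar proton pump, at F25H2.4, where the summit is also at the end of the nucleoside diphosphate kinase gene ndk-1, and at F25B5.5, where it is also at the end of the polyubiquitin gene ubq-1. The remainder were sec-61.A, a subunit of the protein translocon, lin-29, the zinc finger factor that acts at the larval-to-adult switch, lin-13, rps-9, mig-38, the synaptic protein gene cla-1, the SR-related splicing gene rsp-8 and zfp-1. Of these, bcf-1 ranked 14 in replicate 1 and 26 in replicate 2, while the peak at F25H2.4 had no counterpart in replicate 1 and ranked 41 in replicate 2. At cla-1 the replicates were also far apart, at rank 13351 in replicate 1 and rank 61 in replicate 2. The summits at spk-1, epic-3, gcy-28, hcp-6, lin-29, rsp-8 and zfp-1 also lie at the end of a convergent neighbour. Those at cdc-48.2 and hcp-6 lie inside the span of another protein-coding gene.

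**Figure D1:**
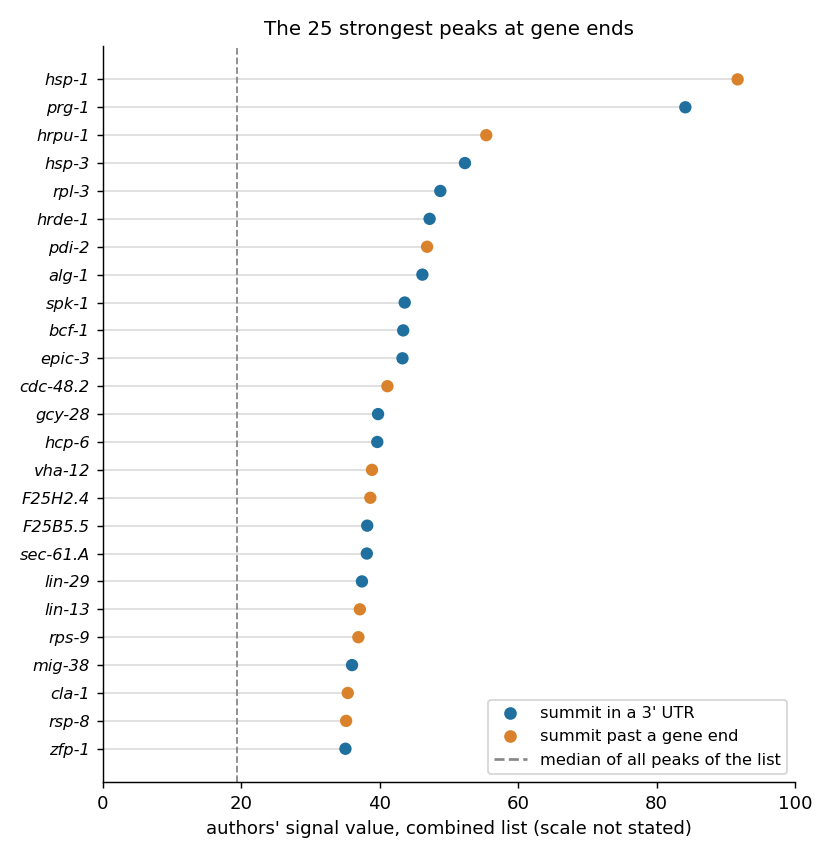
Signal of the 25 strongest gene-end peaks, by the gene at whose end they lie, in the combined list (horizontal axis, authors' signal, scale not stated), with summits in a 3′ UTR in blue and past a gene end in orange. The values run between 35.1 and 91.7, with hsp-1 and prg-1 well above the others, and all lie above the median of the whole list (dashed line, 19.5).

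Gene-end peaks had higher signals in the combined list than the rest by the median, a difference that was described and not tested. The median was 20.7 (range 16.6 to 91.7), against 19.4 in the rest. The quartiles were 18.1 and 25.9 for gene-end peaks and 17.7 and 22.5 for the rest, so the distributions overlapped widely. Among all peaks of the list, 5.78% belonged to the reproducible set. Among gene-end peaks it was 38, or 9.79% (7.02 to 13.2%), against 155, or 5.25% (4.47 to 6.12%), in the rest. By class, 9.01% of 3′ UTR peaks and 10.97% of past-end peaks were reproducible, against 6.81% (5.63 to 8.16%) of the 1600 peaks near transcript starts and 4.90% of the 796 in coding exons. The reproducible gene-end peaks were the 38 strongest by signal, so these shares restate signal and are no separate evidence.

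**Figure D2:**
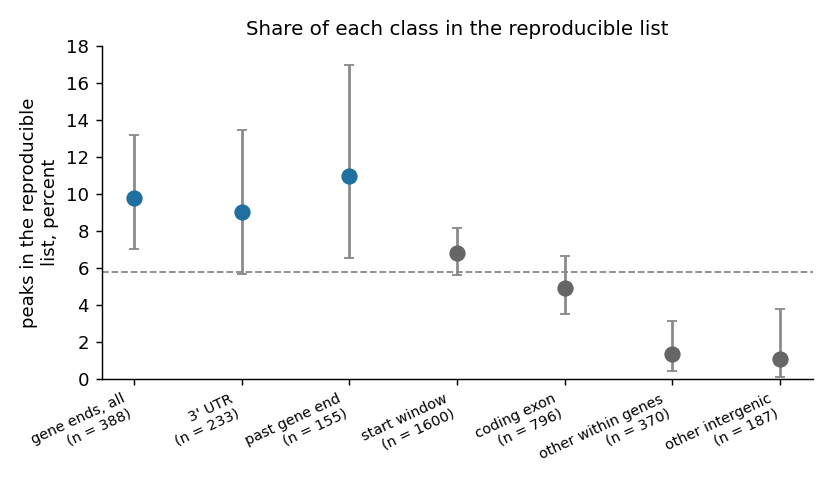
Percentage of peaks in the reproducible set (points, with exact 95% intervals) for all gene-end peaks, their 3′ UTR and past-end parts, and the other position classes of the combined list. Gene-end peaks reach 9.79%, against 6.81% near transcript starts and 5.78% over the list (dashed line).

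The gene-end share was largest at the top of the combined list. It was 18.8% in the strongest 10% of peaks and 17.96% in the next 10%, and lay between 7.19 and 12.3% in each 10% below, with 10.8% in the lowest. Of the 193 strongest peaks, 38 in the combined list (19.7%), 40 in replicate 1 (20.7%) and 31 in replicate 2 (16.1%) lay at gene ends. Over the whole replicate lists the shares were 6.79% (1185 of 17453) in replicate 1 and 7.79% (2289 of 29384) in replicate 2. The sequence that could hold a summit under the position rule is 5.78% of the genome.

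**Figure D3:**
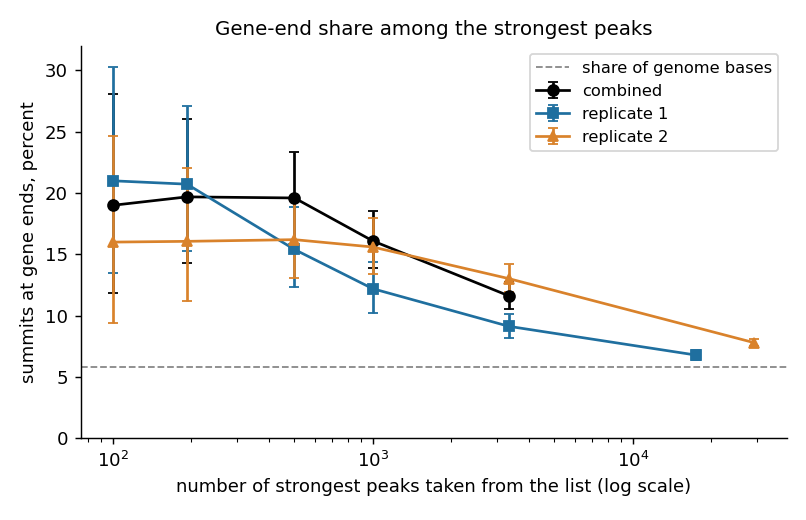
Percentage of summits at gene ends among the strongest peaks of the combined list and of each replicate list (vertical axis), by the number of peaks taken (log axis), with exact 95% intervals. Among the strongest 193 it is 19.7% in the combined list, 20.7% in replicate 1 and 16.1% in replicate 2, above the 5.78% of genome bases open to the rule (dashed line).

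Most gene-end peaks were found again in the replicate lists, which are long and were used to make the combined list. A peak of replicate 1 overlapped 325 of the 388 (83.8%, interval 79.7 to 87.3%), against 82.3% of all combined peaks. A peak of replicate 2 overlapped 361 (93.0%, interval 90.04 to 95.4%), against 89.6% of all combined peaks. These shares are near the background. A stricter reading counts a peak only if it overlaps one of the strongest 10% in each replicate list, which held for 82 gene-end peaks (21.1%, 17.2 to 25.5%), against 12.7% of all combined peaks and 11.6% of the rest (10.4 to 12.8%). The combined signal is made from the same replicates, so this share is tied to signal and is no separate evidence. Some neighbouring gene-end peaks also overlap the same replicate peak and were each counted. Among the 38 reproducible gene-end peaks, 36 were found in replicate 1, with ranks between 1 and 13351 and a median of 167.5. All 38 were found in replicate 2, with ranks between 4 and 3915 and a median of 145.5. The 2 without a counterpart in replicate 1 were F25H2.4 and T28B11.1. A weaker combined peak (26.8) 52 bp past the T28B11.1 end ranked 10 in replicate 1 and had no counterpart in replicate 2. In the replicate lists taken alone, 1109 genes in replicate 1 and 2031 in replicate 2 held a gene-end summit, and the 502 genes in common were 45.3% and 24.7% of the replicates' lists.

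**Figure D4:**
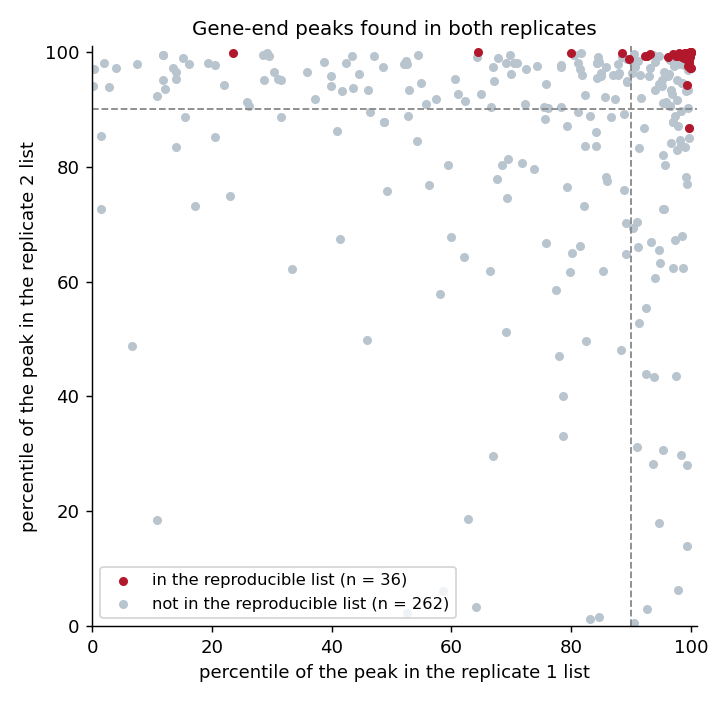
Percentile of the overlapping peak by signal in the replicate 1 list (horizontal) and in the replicate 2 list (vertical), for the 298 gene-end peaks found in both, with the reproducible set in red. The dashed lines bound the strongest 10% of each list, and 82 peaks lie beyond both.

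Summits were denser in 3′ UTRs than past transcript ends, and their density dropped with distance past the nearest transcript end. Per Mb of sequence open to the rule, 3′ UTRs held 112.6 summits (98.6 to 128) and past-end sequence 41.6 (35.3 to 48.7), against 33.3 per Mb over the whole genome and all 3341 peaks. The density was 130 (106 to 157) in the last 100 bases before the end and 80.7 (62.3 to 103) in the first 100 bases past it. Deeper inside the 3′ UTR it was between 93.7 and 110.2, with intervals that overlap that of the last 100 bases. Past the first 100 bases the density was 40.6 between 100 and 200 bp past the end and 23.1 (13.4 to 36.96) between 400 and 500 bp. Of the 388 summits, 173 (44.6%) lay within 100 bp of an end, and the median distance was 118.5 bp, or 132 bp from the outermost end of the gene. The first 100 bases past the end also held 11 of the 17 reproducible past-end peaks. Median signal was 22.2 in the last 100 bases of the 3′ UTR and 21.4 in the first 100 past it, and between 18.6 and 20.04 farther past the end. The nearest annotated start was a median of 1700.5 bp away (range 216 to 8480).

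**Figure D5:**
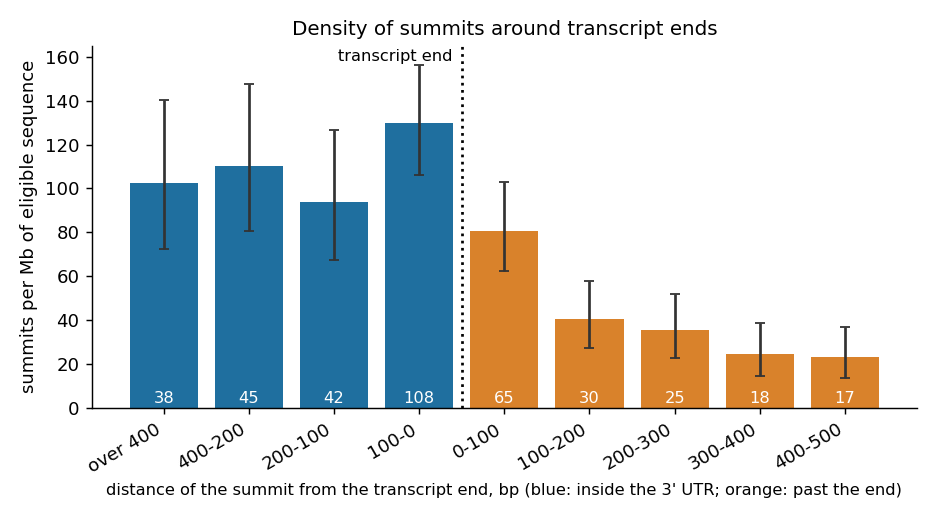
Gene-end summits per Mb of sequence open to the position rule (bars, with exact 95% intervals and the number of summits), by distance in bp to the annotated transcript end, inside the 3′ UTR (blue) and past the end (orange). The density is 130 in the last 100 bases before the end and drops to 23.1 between 400 and 500 bp past it.

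At the outer limit of the position rule, the farthest peaks kept were at unc-89, a giant muscle protein gene, 492 bp past its end with a signal of 20.6, and at semi-1, 485 bp past the end with 18.01. The nearest ones left out were at nhr-115, 502 bp past the end with 20.4, and at F52B5.7, 505 bp past with 16.7. At the limit of the reproducible set, skn-1 (33.1), a stress response transcription factor gene, and fat-1 (32.997), which encodes a fatty acid desaturase, were the weakest gene-end peaks inside. The strongest outside were npp-9 (31.6), a nuclear pore protein gene, and lin-59 (30.9), a chromatin regulator gene.

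Many summits lay at the ends of several genes at once. Of the 388, 140 (36.1%) lay at the end of 2 or more genes, against 18.1% of the bases open to the rule, so a peak often cannot be assigned to 1 gene. By class, 49.4% of 3′ UTR summits and 16.1% of past-end summits were shared in this way. The summits of 40 peaks, 26 of them past gene ends, lay inside the span of a protein-coding gene other than the assigned one. The nearest gene downstream was convergent for 239 peaks and tandem for 147, and 2 had no such neighbour. By gene, 61.8% of those that held a peak had a convergent neighbour, close to the 59.2% over all genes weighted by their bases open to the rule. The pooled share joins unlike parts. It was 71.6% (65.2 to 77.4%) for genes with 3′ UTR peaks and 46.4% (38.3 to 54.6%) for genes with past-end peaks. The weighted background was not split by class. Of the 140 shared summits, 17 (12.1%, 7.24 to 18.7%) were reproducible, against 21 (8.47%, 5.32 to 12.7%) of the 248 at a single gene's end. The genes that held peaks had long 3′ UTRs, with a median of 349 bases, against 141 bases for genes with any base open to the rule. A longer 3′ UTR offers more bases, and the median number open to the rule was 731.5 per gene that held a peak, against 483.

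The window of 100 bp on each side of the summit was searched for the hexamer AATAAA on the gene strand and on the opposite strand. It lay on the gene strand at 96 of 388 peaks (24.7%, 20.5 to 29.3%), and on the opposite strand at 134 (34.5%). Within 100 bp of an end, 75 of 173 peaks (43.4%) held it on the gene strand and 46.2% on the opposite strand. Windows of the same length at the outermost ends of all protein-coding genes held it on the gene strand in 60.7%. The share at peaks near ends was lower, but those background windows were placed at the end itself. Peak windows were centred on summits up to 100 bp away from an end. Because the placement differs, the shares cannot show whether peaks near ends hold the hexamer less often. Farther than 100 bp from an end, 21 of 215 peaks (9.77%) held it on the gene strand. On either strand it was found at 48.2% of gene-end peaks, against 27.8% of the rest and 52.1% of windows of the same length placed every 25 bases over the sequence open to the rule. Gene-end windows had a GC content of 35.0 ± 5.67% (SD, n = 388), against 40.6 ± 6.80% in the rest (SD, n = 2953) and 33.3 ± 6.25% over the placed windows. Base composition therefore differs between the classes of sequence, and its part in the signal was not tested. The last 50 bases of genes that held peaks contained the hexamer in 47.0% of 372 genes, against 48.2% of all protein-coding genes.

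With each summit assigned to 1 gene, the 388 peaks lay at the ends of 372 protein-coding genes, 1.86% of the 19973 annotated. Counting every gene whose end holds a summit gives 504. Of the 372, 57 (15.3%) fell into at least 1 of 20 functional lists, against 4.92% of the 14922 genes with any base open to the rule. The lists were chosen with earlier results of these data known, so this share is no independent evidence. Counts by list use the assigned gene, and those that differ when every gene at a summit is counted are given after them. The share to set beside each count is 1.86% of all protein-coding genes, or 2.49% of those with any base open to the rule. Ribosomal protein genes held a peak at 9 of 80 ends: besides rpl-3 and rps-9, rpl-35 reached 30.1, rps-26 27.8 and the others between 16.98 and 26.97. Chaperone genes did at 5 of 68 ends, with cct-7 (24.8) and cct-4 (18.04), subunits of the cytosolic chaperonin, beside hsp-1, hsp-3 and pdi-2. Argonautes did at 3 of 20 ends, and prg-1, hrde-1 and alg-1 were all in the reproducible set. Of these 3 lists, 2 ribosomal protein genes, 3 chaperone genes and 3 Argonaute genes were reproducible.

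Genes that time larval development are the heterochronic genes, and 5 of 21 had a peak. They were lin-29 (37.5), lin-42 (25.1), the period relative that paces the molt, blmp-1 (21.2), a zinc finger factor, ain-1 (20.8), a partner of the microRNA Argonautes, and kin-20 (19.7), a casein kinase. Of the 5, only lin-29 was in the reproducible set. Ranks in replicates 1 and 2 were 102 and 82 at lin-29, and 720 and 2590 at lin-42. They were farther apart at blmp-1 (17443 and 1733), ain-1 (811 and 20376) and kin-20 (1876 and 10359). Of 53 genes of mRNA export, TREX and the nuclear pore, 6 had a peak, led by npp-9 (31.6), nxf-1 (19.9), the export receptor, and npp-7 (19.9), and none was reproducible. Fatty acid genes had a peak at 6 of 46 ends, led by fat-1 (32.997), mdt-15 (24.9), fat-2 (18.9) and elo-1 (17.2). Of 22 genes of glycolysis and its reversal, 3 had a peak, pck-2 (34.7), pck-1 (30.8) and pyk-1 (23.7). Of 48 splicing genes, 4 had a peak, rsp-8 (35.2), snrp-200 (22.7), prp-8 (20.002) and uaf-1 (17.2). Germline genes had 4 of 58, among them glh-1 (24.4), spn-4 (23.6) and car-1 (18.7).

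Smaller counts were found in the other lists. The shares of histones (1.22%), translation factors (2.44%) and muscle structure genes (3.23%) were near the 1.86% over all protein-coding genes. Respiratory chain genes had 3 of 52, atp-1 (29.9), cox-5A (21.5) and cox-4. Muscle structure genes had 2 of 62, pat-3 (20.9) and unc-89 (20.6), and proteases 2 of 28, led by cpr-9 (26.6). The proteasome and cdc-48 list had 2 of 39, cdc-48.2 (41.1) and cdc-48.1 (18.4). Translation factors had 1 of 41, eef-2 (29.7), mRNA 3′ end formation genes 1 of 23, cpf-2 (18.5), and histones 1 of 82, hil-2 (22.8). Cuticle collagens had 0 of 176 as the assigned gene. The exact interval over all 176, closed genes included, allows a share of up to 2.07%. That limit lies above the 1.86% over all protein-coding genes, so the 0 does not show fewer peaks than elsewhere. Both summits assigned to rig-4 (30.6 and 24.3) also lie at the end of col-115. By the same assignment major sperm proteins (47), tubulins (16) and vitellogenins (6) had 0, and also had 0 when every gene at a summit was counted. Counted that way, mRNA 3′ end formation genes had 2, since the npp-9 summit is also at the end of clpf-1, and respiratory chain genes had 5. Chaperones then had 7, ribosomal protein genes 10, fatty acid genes 8, export genes 7, germline genes 5, and muscle and proteasome genes 3 each. Among all 19973 protein-coding genes, 504 were counted that way. The position rule excludes some genes, since 59 of the 80 ribosomal protein genes and 137 of the 176 collagen genes have any base open to it. The shares of lists with few members carry wide intervals, and no list was tested. Only combined signals are given for most list genes, and the replicates could differ widely. At eef-2 the ranks were 12347 in replicate 1 and 57 in replicate 2, and at cox-5A 283 and 20647. At fat-1 they were close, at 266 and 261. The peaks at nxf-1, npp-7 and pyk-1 had no counterpart in replicate 1.

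Some genes held a peak at both ends. Of the 372 genes, 67 (18.01%, 14.2 to 22.3%) also had a combined summit in the start interval of their own transcripts, against 6.47% of all protein-coding genes. The end peak had the higher signal in 37 of the 67 and the start peak in 30. The 5 with the strongest end peaks follow, a choice that favours a stronger end. At rpl-3 the start peak was stronger (91.3) than the end peak (48.8). At hsp-1 the end peak (91.7) was stronger than the start peak (28.7), as it was at prg-1 (84.1 at the end and 23.9 at the start). The same order was seen at hrpu-1 (55.4 and 21.1) and hsp-3 (52.3 and 23.3). The aly-2 gene itself held 1 combined summit, in its own start interval with a signal of 17.2, and no gene-end peak.

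There were 14 genes with more than 1 gene-end peak. The kinase gene mbk-2, which acts at the oocyte-to-embryo transition, had 3 summits, with signals of 28.1, 27.2 and 24.04 at 517, 15 and 241 bp before an end. All 3 overlapped the same peak of replicate 2 (21.3). Y17G7B.21 had 3, with signals of 27.2, 22.8 and 16.9. The other 12 had 2 each, among them lin-29 (37.5 and 21.1), pck-1 (30.8 and 17.9) and vhp-1 (34.8 and 17.6). In 12 of the 14 genes, at least 2 of the summits overlapped the same single peak in 1 or both replicates, so they are not independent sites. The exceptions were T28B11.1 and zfr-1.

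Across chromosomes, gene-end summits per Mb open to the rule were fewest on X at 33.8 (24.02 to 46.2). The densities were 47.6 on V, 60.9 on II, 80.5 on IV, 97.9 on I and 104.8 (83.8 to 129) on III. As a share of the combined peaks on the same chromosome, gene-end peaks ranged between 9.18% on X and 13.5% on I. Median signal by chromosome ranged between 19.7 on X and 21.8 on IV.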

How the data were processed

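The deposited ce11 peak lists, from 2 replicates and their combination, were used. Their signal column is the authors' deposited signal per peak, of unstated scale, used to rank peaks only inside 1 list. The deposited −log10 q-values were used for no selection here, and they were low at most gene-end peaks. The permissive lists were derived with a control alignment, per the labels' file descriptions. Neither the peak caller, the aligner nor the threshold of the irreproducible discovery rate (IDR) is given in the sources used here. Lists in ce10 were not used here. The combined list has peaks of 370 bp.

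Summits were set against Ensembl release 115 (WBcel235, the ce11 assembly), and sequences were read from the RefSeq genome of that assembly. Classes were assigned in the order start interval, coding exon, 3′ UTR, past gene end and other. A summit in several gene ends was assigned to the gene whose 3′ UTR holds it, then to the nearest transcript end. Found in a replicate means an overlap of at least 1 bp. Intervals are 95%. The position rule was tested on simulated summits. Computation was done in Python 3.11.15 with numpy 2.4.6, scipy 1.17.1, pandas 2.3.3 and matplotlib 3.10.9.

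The gene-end peaks and gene lists were chosen with earlier results of these data known, so no list and no difference was tested. Named genes were those at the 25 strongest gene-end peaks, up to 4 per list by signal, up to 5 with a peak at both ends, 2 on each side of the reproducible limit, and aly-2. Genes with several peaks, those at the 500 bp limit, col-115 and clpf-1, F25H2.4 and T28B11.1 as the reproducible peaks missing from replicate 1, other neighbours, and the remaining list members named were chosen after their values were seen. Alternatives were other windows, overlaps, signal limits, hexamer windows and replicates.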

Additional observations from a re-analysis of the deposited data

How the results depend on the processing

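The gene-end share of 11.6% became 9.82% with a past-end window of 200 bp, 13.05% with 1000 bp, 15.1% with a start interval of 500 bp before to 100 bp after, and 14.1% with only the starts of protein-coding genes. It was 13.6% among peaks at or above the median signal, 19.7% in the reproducible list, and 6.79 to 7.79% when either replicate was left out, which also swaps the combined list for a longer one. At the combined list's length of 3341 peaks it was 9.13% in replicate 1 and 13.02% in replicate 2. Peaks at or above the median signal had 16.7% in the reproducible set, 88.5% found in replicate 1 and 96.5% in replicate 2. Requiring overlap of at least 50% of the peak gave 78.4% in replicate 1 and 89.9% in replicate 2, summits within 100 bp gave 71.4 and 81.4%, and only the strongest 3341 peaks of each replicate gave 50.5 and 63.7%. The hexamer share was 13.9% with 50 bp on each side and 57.5% with 1-base variants. The share of genes in any list was 8.30 to 8.52% with either replicate left out, again over longer lists (1109 and 2031 genes). Of the alternatives for single lists and GC content, 7 stayed within their limits and 6 moved. The median signal stayed between 20.4 and 21.1 under each of the other windows. No paired analysis was possible because only 1 group was profiled. With 2 replicates of unknown depth, the difference between the replicates was not tested.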
